A study of Homo sapiens with 6 samples.

Results

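The genes described here build and load the replicative helicase. They are MCM2, MCM3, MCM4, MCM5, MCM6 and MCM7, the subunits of the MCM hexamer, together with MCM10, CDC6, CDT1 and GINS2. Each was found by its symbol in the platform's gene table, counting only probe sets that carry a single symbol, and the brightest probe set by its mean over all arrays stood for the gene. All 10 genes had such a probe set, out of 33458 genes named in this way. All 10 also passed the filter on low values that left 20590 genes for testing, a mean log2 value of at least 3.93. The arrays came from TPC-1 cells, an established line of human papillary thyroid carcinoma, harvested 24 h after lipid transfection of 25 pmol of siRNA. The si-SMAD3 group received siRNA against SMAD3, a transcription factor of the TGF-beta pathway, and the si-Control group received a control siRNA, so both groups went through transfection. Each group has 3 arrays, 1 from each of 3 experiments done at separate times. The titles and protocols name no added TGF-beta, and the experiment cannot tell fewer cells in S phase from less RNA per cell.

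Eukaryotic origins are licensed in G1, when the origin recognition complex, CDC6 and CDT1 load MCM hexamers onto DNA as inactive double rings. At the start of S phase CDC45 and the GINS complex join the MCM ring to form the active helicase, and MCM10 helps it to begin unwinding. Most of these genes are textbook E2F targets, transcribed as cells pass from G1 into S phase, and their proteins are widely used as markers of cycling cells. In epithelial cells TGF-beta is known for arresting the cycle in G1.

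Promoter sequences are shown first, since many of these promoters share E2F-type letters near the start. RefSeq's GRCh38.p14 promoter table, which gives 250 bases before and 50 after each start site, held 8 of the 10 genes with 10 start sites, 3 of them for MCM7. MCM4 and MCM5 are not shown here. E2F-type matches were any of the octamers TTTCCCGC, TTTCGCGC, TTTGCCGC and TTTGGCGC on either strand, with overlapping matches merged into 1 site. They occurred in 7 of the 10 windows, against 3.31% of the 35116 promoter windows in the table and 4.38% of the 16103 windows of tested genes. MCM10 was the gene without a match, and of the 3 MCM7 windows only that of start 3, used below, held matches. The windows below span 30 bases each, 5′ to 3′ on the gene's strand, with the E2F-type letters in capitals, and the start site is counted as 0.
MCM2, chr3:127598404-127598433, plus strand: tgaaccactTTTCGCGCGAAAcctggttgt
MCM3, chr6:52284728-52284757, minus strand: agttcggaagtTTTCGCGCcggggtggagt
MCM7, chr7:100101388-100101417, minus strand: ggggggcgacgTTTCGCGCcaatttcggtt
CDC6, chr17:40287875-40287904, plus strand: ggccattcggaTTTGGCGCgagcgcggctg
CDT1, chr16:88803743-88803772, plus strand: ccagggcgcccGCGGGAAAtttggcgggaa
GINS2, chr16:85688967-85688996, minus strand: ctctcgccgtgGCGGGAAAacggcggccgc
In MCM3 and MCM7 the octamer lies across or just before the start site, from -4 to 3 and from -9 to -2. In MCM2 and CDC6 it lies just after it, from 2 to 13 and from 7 to 14. In CDT1 and GINS2 it lies from -35 to -28 and from -31 to -24. MCM3 and MCM7 each held a second, more distant site, at -174 to -167 and at -187 to -180.

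MCM6 is shown over a longer stretch because it gave the largest difference among the 10 genes and because its promoter repeats a 12-base palindrome-like element. The capitals mark both copies of the E2F-type element and the CCAAT box letters, here on the opposite strand, which are known as a site of the factor NF-Y.
MCM6, chr2:135876482-135876605, minus strand: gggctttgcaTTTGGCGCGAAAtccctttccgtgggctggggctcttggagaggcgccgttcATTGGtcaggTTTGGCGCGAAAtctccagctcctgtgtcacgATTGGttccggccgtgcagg
The copies lie at -152 to -141 and at -90 to -79. CCAAT on either strand was present in 8 of the 10 windows and in 34.6% of all windows. The 8 include all 3 windows of MCM7, so the count is of windows and not of genes. MCM7 had 1 match at each of starts 1 and 2 and 3 matches at start 3. The other windows are those of MCM3, MCM6, MCM10, CDC6 and GINS2. The pentamer CAGAC, which SMAD proteins can bind, was present on either strand in 3 of the 10 windows, those of MCM6, MCM10 and GINS2, and in 45.3% of all windows. These are matches of letters, and no binding was measured.

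**Figure D1:**
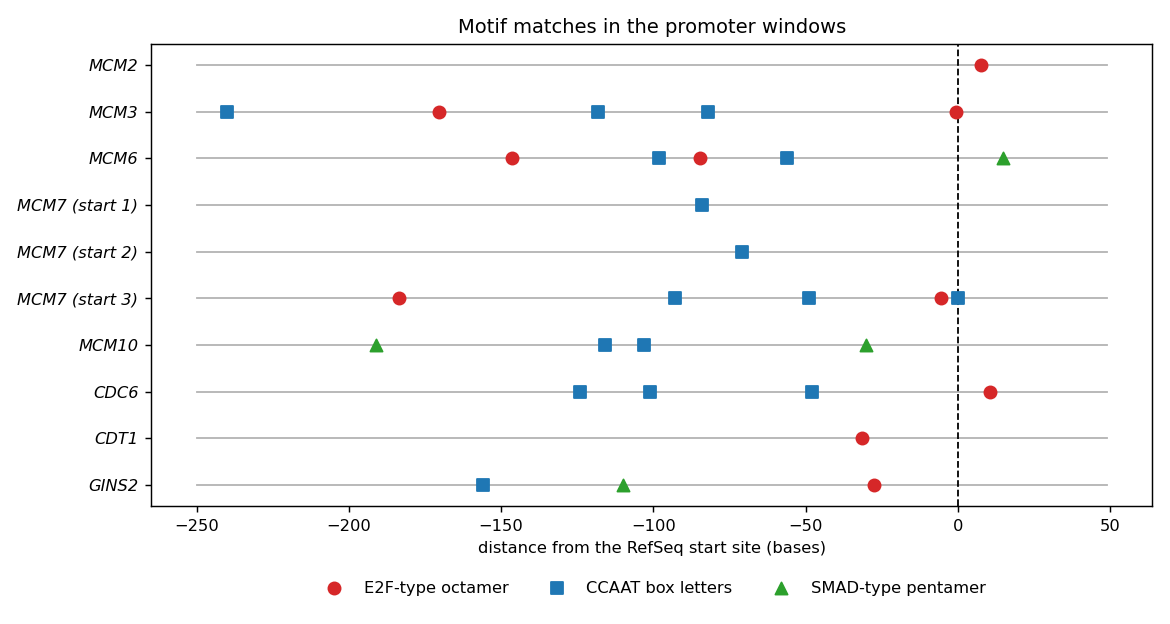
Position of motif matches in 10 promoter windows of 8 genes, in bases from the RefSeq start site (dashed line at 0). Circles are E2F-type octamers, squares CCAAT and triangles CAGAC, each on either strand. E2F-type matches lie within 40 bases of the start in 6 of the windows, and MCM6 has 2 further upstream.

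SMAD3 mRNA was lower in every experiment, at log2 values of 14.20 to 14.67 with control siRNA and 10.03 to 10.58 with SMAD3 siRNA. Its difference of -4.06 (SE 0.22) gave 0.00044 as the adjusted p in limma, and it was the 1 gene called, 0.00486% of those tested. Of cell type markers, PAX8 (13.31 to 13.99 over the 6 arrays), FOXE1 (6.67 to 7.34), KRT8 (14.66 to 15.33), KRT18 (13.03 to 14.14), KRT7 (7.52 to 8.60) and KRT19 (4.72 to 5.43) were above the filter, while TG, TSHR, SLC5A5, NKX2-1, EPCAM and CDH1 had means below the filter. The differences of the 6 above the filter ran from -0.08 to 0.49, with a median of 0.17. KRT7, singled out after the values were seen, had the largest, 0.49 (SE 0.24, adjusted p = 0.88 by limma). It was higher after SMAD3 siRNA with no overlap of the groups, and its part in the results was not tested. The level of markers of other cell types, as a mean over each list, ran from 4.61 to 4.98 in control and 4.69 to 4.98 in knockdown arrays for 6 immune genes. It ran from 3.47 to 3.58 and 3.59 to 3.75 for 6 endothelial genes, and from 5.77 to 6.09 and 6.02 to 6.26 for 6 fibroblast genes. The endothelial ranges did not overlap, at values below the filter. In these lists 4, 1 and 5 genes were above the filter. Single markers lay far above their list mean, namely CD68 (8.39 to 9.24), COL1A1 (8.04 to 9.04) and LUM (8.44 to 10.07). The first principal component, 29.3% of the variance, put the experiment 2 arrays at 23.6 (si-Control) and 39.5 (si-SMAD3) and the remaining 4 between -28.1 and -6.15. Values below are the authors' RMA log2 values, which spread more widely than is usual for RMA, so differences hold on that scale only. Levels are compared within a gene, never between genes.

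None of the 10 genes passed the adjusted threshold of 0.05, and the number called was 0 in each direction. All 10 had a lower mean after SMAD3 siRNA, where 47.2% of all tested genes did. Their median difference was -0.43 on the log2 scale, against 0.02 over all genes tested. At an unadjusted p under 0.05 by limma 1 gene was lower, MCM6, against 3.03% of all tested genes, and it was also the 1 gene whose groups did not overlap, against 5.28% lower without overlap among all genes. Since the genes share arrays and are known to vary together, these counts are not counts of independent observations. The genes and lists were chosen with earlier results of these data known, so contrasts with all genes, here and below, are description only.

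The spread of the median over single arrays was wide. Leaving out 1 array gave -0.20 (si-Control replicate 1), -0.28 (si-Control replicate 3) and -0.24 (si-SMAD3 replicate 2), but -0.69 for si-Control replicate 2. The number of genes with a lower mean was 7 in the first of these and 8 in the next 2. Without both arrays of experiment 2, which stand apart, the median was -0.40, all 10 genes were lower and MCM6 differed by -0.84. With si-SMAD3 replicate 2 alone left out MCM6 differed by -0.60 (unadjusted p = 0.059 by limma), and over the 9 omissions of an array or an experiment it ran from -1.19 to -0.60. The unadjusted p by limma also rose above 0.05 without si-Control replicate 1 (0.058), si-Control replicate 3 (0.065) or the pair of experiment 1 (0.062).

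Of the hexamer subunits, MCM6 differed most. MCM6 contributes 1 of the ATPase subunits of the ring and is the subunit through which CDT1 contacts it. In experiments 1, 2 and 3 its log2 value was 9.84, 9.16 and 9.91 with control siRNA and 8.94, 7.999 and 9.13 with SMAD3 siRNA. Every knockdown array lay below every control array, with 0.03 between the lowest control and the highest knockdown value. The means were 9.64 ± 0.41 and 8.69 ± 0.61 (SD, n = 3), a difference of -0.95 (SE 0.33, 95% interval -1.69 to -0.21), or 1.93-fold on the deposited scale (adjusted p = 0.81 by limma). Within the experiments MCM6 differed by -0.90, -1.16 and -0.78. With the experiment as a block the SE was 0.19, the unadjusted p 0.0015 and the adjusted p 0.53.

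MCM7 and MCM4, with MCM6, form the part of the ring that has helicase activity by itself in the test tube. MCM7 was at 12.52, 11.29 and 12.43 in the control and at 11.60, 10.96 and 11.72 in the knockdown arrays. The groups overlapped because the control array of experiment 2 lay below 2 of the knockdown arrays, although MCM7 was lower within each experiment (-0.92, -0.33 and -0.70). Its difference was -0.65 (SE 0.35, 95% interval -1.44 to 0.14, adjusted p = 0.89 by limma). MCM4 was at 13.78, 12.72 and 13.49 in the control and at 13.21, 12.41 and 13.06 in the knockdown arrays, a difference of -0.44 (SE 0.31, 95% interval -1.15 to 0.27, adjusted p = 0.94 by limma). MCM4 too was lower within each experiment, by values between -0.57 and -0.31, while the range of its groups overlapped. With the experiment as a block the 95% interval was -1.12 to -0.17 for MCM7 and -0.87 to -0.0079 for MCM4 (unadjusted p of 0.014 and 0.047, adjusted p of 0.64 and 0.71 by limma). The block intervals of all members other than MCM4, MCM6 and MCM7 spanned both signs. Their unadjusted p by limma ran from 0.051 (MCM5) to 0.81 (CDC6). The block lowered the SE from 0.36 to 0.18 for MCM2 and from 0.50 to 0.22 for CDC6. It raised the SE from 0.192 to 0.199 for MCM3 and from 0.203 to 0.212 for CDT1.

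MCM2, MCM3 and MCM5 complete the ring, and MCM2 with MCM5 forms the gate through which DNA enters. MCM5 was at 10.56, 9.49 and 11.17 in the control and at 9.83, 9.47 and 10.32 in the knockdown arrays. Nearly all of its difference of -0.53 (SE 0.40, 95% interval -1.44 to 0.38) came from experiments 1 and 3, at -0.73 and -0.85, against -0.02 in experiment 2. MCM2, which also carries histones at the fork, was at 8.33, 7.25 and 8.27 in the control and at 8.30, 7.18 and 7.98 in the knockdown arrays. The difference of -0.13 (SE 0.36, 95% interval -0.95 to 0.69) was small beside the gap of about 1 log2 unit between experiment 2 and the others, -1.004. A dimmer MCM2 probe set, at a mean of 4.15, lay little above the filter. MCM3 was at 12.39, 12.22 and 12.16 in the control and at 11.93, 12.33 and 12.02 in the knockdown arrays, a difference of -0.16 (SE 0.19, 95% interval -0.60 to 0.27). Its knockdown value in experiment 2 was above all but 1 of the other arrays.

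Set against the other 5 subunits, MCM6 stood lower in the knockdown arrays. For the group means this follows from MCM6 having the largest difference, so it is not a second result. With each gene centred on its own mean, MCM6 minus the mean of MCM2, MCM3, MCM4, MCM5 and MCM7 was 0.17, 0.42 and 0.26 in the control and -0.19, -0.62 and -0.04 in the knockdown arrays. The groups did not overlap on this relative scale. The measure was chosen after the values were seen and is given without a test.

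**Figure D2:**
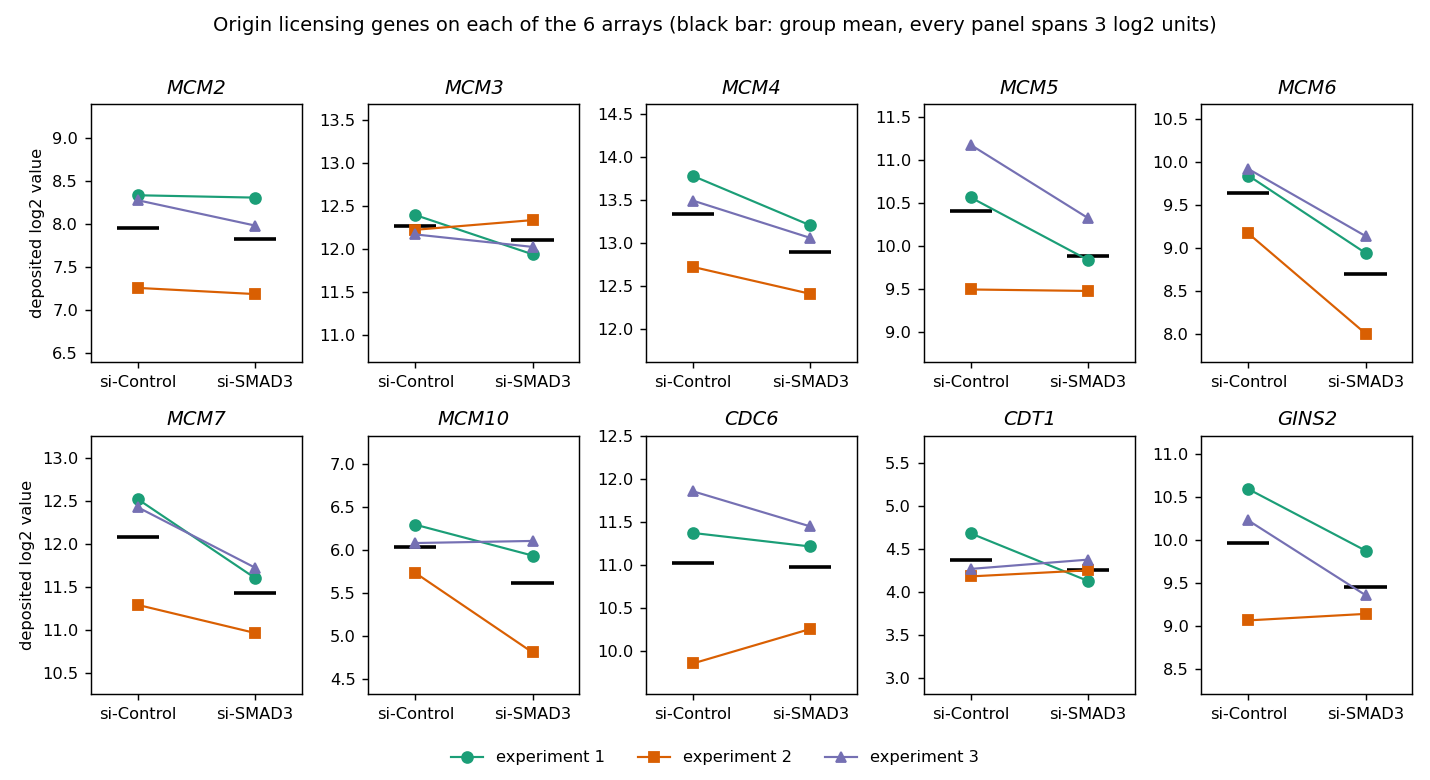
Deposited log2 values of the 10 genes on each array, with lines joining the arrays of 1 experiment and black bars for group means (n = 3). In MCM6 all knockdown points lie below all control points, and in 7 of the panels both experiment 2 points lie below the other 4.

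The loading factors differed little. CDC6, the ATPase that recruits the hexamer to the origin recognition complex, was at 11.37, 9.86 and 11.86 in the control and at 11.22, 10.26 and 11.45 in the knockdown arrays. Its difference of -0.06 (SE 0.50, 95% interval -1.18 to 1.07) changed sign between experiments, at -0.16, 0.40 and -0.41. CDT1, which brings the hexamer to CDC6 and is held in check by geminin, was at 4.68, 4.18 and 4.27 in the control and at 4.13, 4.25 and 4.37 in the knockdown arrays. That probe set is close to the filter value of 3.93 on every array, so the difference of -0.12 (SE 0.20, 95% interval -0.58 to 0.33) describes a dim signal. The intervals of both genes include changes of the size seen for several hexamer subunits.

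The activating factors GINS2 and MCM10 lay lower on average. GINS2, a subunit of the complex that completes the active helicase, was at 10.60, 9.07 and 10.23 in the control and at 9.88, 9.15 and 9.36 in the knockdown arrays. The difference of -0.50 (SE 0.38, 95% interval -1.36 to 0.35) came from experiments 1 and 3, with 0.08 in experiment 2. MCM10 was at 6.29, 5.73 and 6.08 in the control and at 5.94, 4.81 and 6.11 in the knockdown arrays. Here most of the difference of -0.42 (SE 0.34, 95% interval -1.18 to 0.34) came from experiment 2, at -0.92, with 0.02 in experiment 3. For the 9 genes other than MCM6 the adjusted p by limma lay between 0.89 and 0.999.

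Only part of the set had the same sign each time. MCM2, MCM4, MCM5, MCM6 and MCM7, all of them hexamer subunits, were lower in the knockdown array in all 3 experiments, 5 of the 10 genes, where 13.4% of all tested genes were. Some of these differences were small, at -0.03 and -0.07 for MCM2 in experiments 1 and 2 and -0.02 for MCM5 in experiment 2. In experiment 1 all 10 genes were lower (45.8% of all genes), in experiment 2 it was 6 (42.9%) and in experiment 3 it was 8 (57.4%). The median difference was -0.56, -0.04 and -0.42 in the 3 experiments, against 0.04, 0.07 and -0.08 over all genes.

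**Figure D3:**
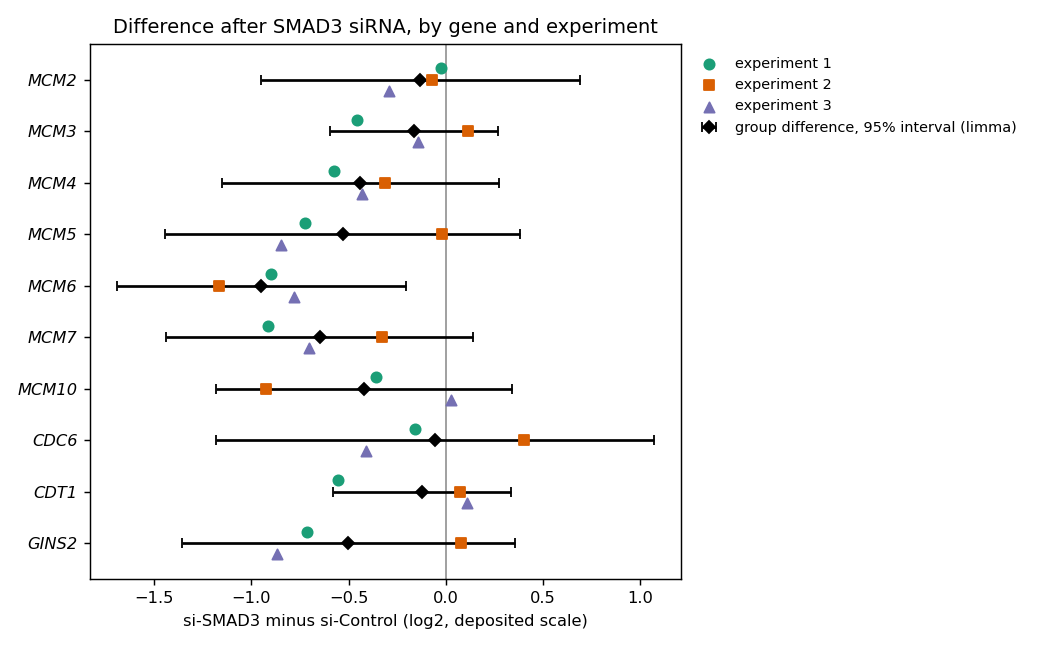
Difference between si-SMAD3 and si-Control on the log2 scale for each gene, with diamonds and bars for the group difference and its 95% interval and coloured symbols for the 3 experiments. In this fit without the experiment as a block, the interval lies wholly below 0 for MCM6 alone, from -1.69 to -0.21.

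The experiment accounted for more of the variation of most of these genes than the siRNA did. Of the sum of squares over the 6 arrays, experiments took 96.8% for MCM2, 94.1% for CDC6 and 75.4% for MCM4, and the siRNA group 1.81%, 0.15% and 23.3%. For MCM6 the shares were 42.7% for the experiment and 55.7% for the siRNA. MCM3 and CDT1 differed from the rest, with 52.4% and 70.0% in neither. The median share of the experiment was 66.2% over the 10 genes and 40.8% over all genes tested, and that of the siRNA group 19.3% and 12.3%. With 2 of 5 degrees of freedom the experiment has a larger share to expect than the group, with 1.

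Experiment 2 was the low one. Averaged over its 2 arrays, CDC6 lay 1.42 log2 units below the mean of experiments 1 and 3 (difference -1.42), MCM2 at -1.004, MCM5 at -0.99, MCM7 at -0.94 and GINS2 at -0.91. MCM6, MCM10 and MCM4 followed at -0.87, -0.83 and -0.82, while CDT1 was at -0.15 and MCM3 at 0.15. Both experiment 2 arrays lay below the other 4 for 7 of the 10 genes, against 9.57% of all tested genes, and MCM6, MCM3 and CDT1 were the genes outside that count. The moderated F test of the experiment, with the siRNA group in the model, called 0 genes at the adjusted threshold (0.0% of 20590), the smallest adjusted p among the 10 being 0.47 for CDC6. At an unadjusted p under 0.05 it gave 8 of the 10 genes, all but MCM3 and CDT1, and 8.24% of all genes. With an intensity trend and robust variance the F test called 29 genes and none of the 10. What set experiment 2 apart was not tested.

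**Figure D4:**
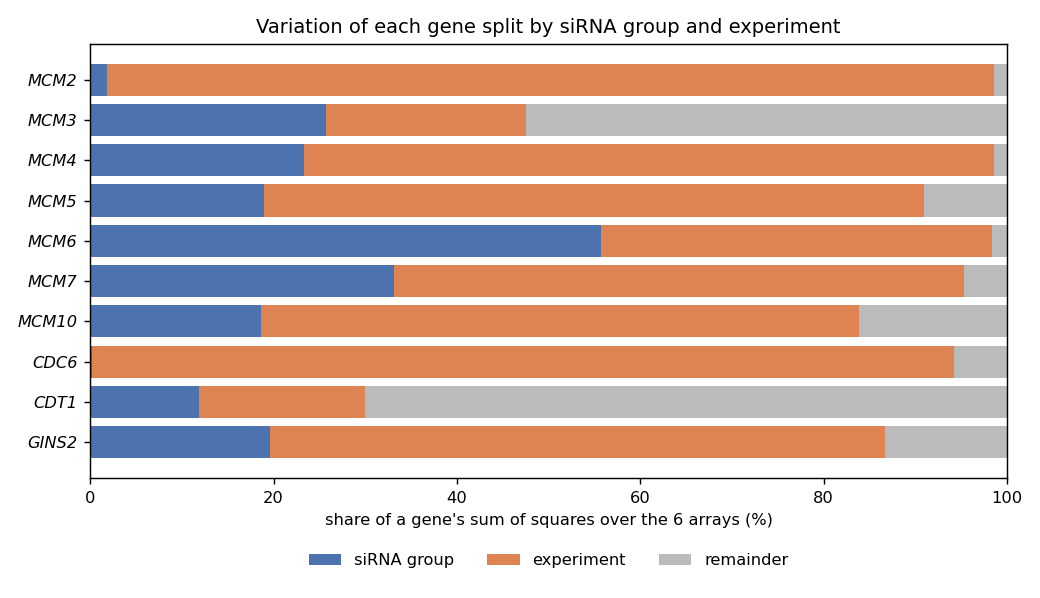
Share of each gene's sum of squares over 6 arrays that lies between the siRNA groups, between the 3 experiments and in neither, in percent. The experiment takes the largest share in 7 of the 10 genes, and the siRNA group in MCM6.

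The other genes of the pathway had medians closer to 0, and none of them was called. Among 11 tested genes of origin recognition and licensing control 9 lay below and 2 above 0, with a median of -0.20. ORC1, the subunit whose level follows the cell cycle, was at 9.82, 8.57 and 9.31 in the control and at 8.77, 8.03 and 8.85 in the knockdown arrays, a difference of -0.68 (SE 0.34, adjusted p = 0.88 by limma). The core subunits ORC2, ORC3, ORC4 and ORC5 differed by -0.20, 0.14, 0.29 and -0.12, and ORC6 by -0.29. GMNN, which encodes the CDT1 inhibitor geminin, differed by -0.0023, with a 95% interval of -0.68 to 0.67. KAT7, the histone acetyltransferase that aids licensing, differed by -0.39 and its groups did not overlap. MCM8 and MCM9, paralogs that act in recombination and not in licensing, differed by -0.54 and -0.27, and the MCM-binding protein gene MCMBP by -0.01. LRWD1 was not analysed here.

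Of 14 tested genes of helicase activation and the replisome 12 lay below and 2 above 0, with a median of -0.17. CDC45, the partner that completes the active helicase with GINS, differed by -0.43 (SE 0.45), and the other GINS subunits GINS1, GINS3 and GINS4 by 0.20, -0.05 and -0.11. MTBP, which works with TICRR in origin firing, was at 11.73, 10.66 and 11.69 in the control and at 11.02, 9.91 and 11.08 in the knockdown arrays, a difference of -0.69 (SE 0.38). It was lower in each experiment and its groups overlapped through experiment 2. The kinase genes CDC7 and DBF4, whose product phosphorylates the MCM ring, differed by -0.20 and -0.37. TICRR differed by 0.23, TOPBP1 by -0.22 and RECQL4 by -0.12. Of fork components, WDHD1 differed by -0.52, CLSPN by -0.19, TIMELESS by -0.16 and TIPIN by -0.05. DONSON was not analysed here.

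Among 23 DNA synthesis genes 20 lay below and 3 above 0, with a median of -0.28. Those with the smallest p were the clamp loader subunits RFC5 at -0.79 (SE 0.35) and RFC1 at -0.31, the polymerase epsilon subunit POLE2 at -0.68 and the catalytic subunit of polymerase alpha, POLA1, at -0.55. RFC1 was the 1 gene of the 23 that was lower without overlap of the groups, against 5.28% of all tested genes. Of 6 nucleotide supply and S phase genes 5 lay below 0, with a median of -0.16, and SLBP, the histone mRNA stem-loop binding protein, was at -0.72, the thymidylate synthase gene TYMS at -0.42, TK1 at -0.20 and RRM1 at -0.12. Their smallest adjusted p by limma was 0.86, as for the 15 mitosis genes, of which 13 lay below 0 with a median of -0.24. CCNB2 differed by -0.52, CENPF by -0.44, KIF20A by -0.60 and TOP2A by -0.44. The groups did not overlap for 4 of the 15 (CCNB2, CENPF, KIF20A and AURKA, all lower, with AURKA named after its values were seen), against 5.28% lower without overlap over all tested genes.

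Among 22 E2F, RB and G1-S regulators 15 lay below and 7 above 0, with a median of -0.12. CDK6, a kinase that phosphorylates RB in G1, had the largest difference of the companion genes. It was at 9.20, 8.11 and 8.90 in the control and at 8.08, 7.53 and 7.47 in the knockdown arrays, a difference of -1.04 (SE 0.30, adjusted p = 0.76 by limma). The groups did not overlap, by 0.03. E2F7, a repressor of E2F targets, differed by 0.60, E2F5 by 0.56 and E2F6 by -0.51. Of 9 genes that act in the turnover of licensing factors 7 lay below 0, with a median of -0.07. DTL, the adaptor that targets CDT1 for destruction, differed by -0.50, the APC/C inhibitor FBXO5 by -0.54, FZR1 by 0.15 and SKP1 by 0.11.

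Of 7 tested genes of quiescence and arrest 5 lay above and 2 below 0, with a median of 0.20 and none called (smallest adjusted p of 0.87 by limma). Of all tested genes 47.2% lay below 0. The RB family genes RB1, RBL1 and RBL2, counted among the regulators above and named after their values were seen, differed by -0.03, -0.27 and -0.08. CDKN1B, which encodes p27, was at 9.35, 10.35 and 9.72 in the control and at 10.21, 10.71 and 10.36 in the knockdown arrays, a difference of 0.62 (SE 0.28). The groups overlapped narrowly and CDKN1B was higher within each experiment. CDKN1A, which encodes p21, was at 8.86, 8.19 and 9.72 in the control and at 9.55, 10.01 and 9.26 in the knockdown arrays, so that its difference of 0.68 (SE 0.37) was made of 0.69, 1.82 and -0.46 in the 3 experiments. GADD45A differed by 0.38 and CDKN1C by 0.20.

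**Figure D5:**
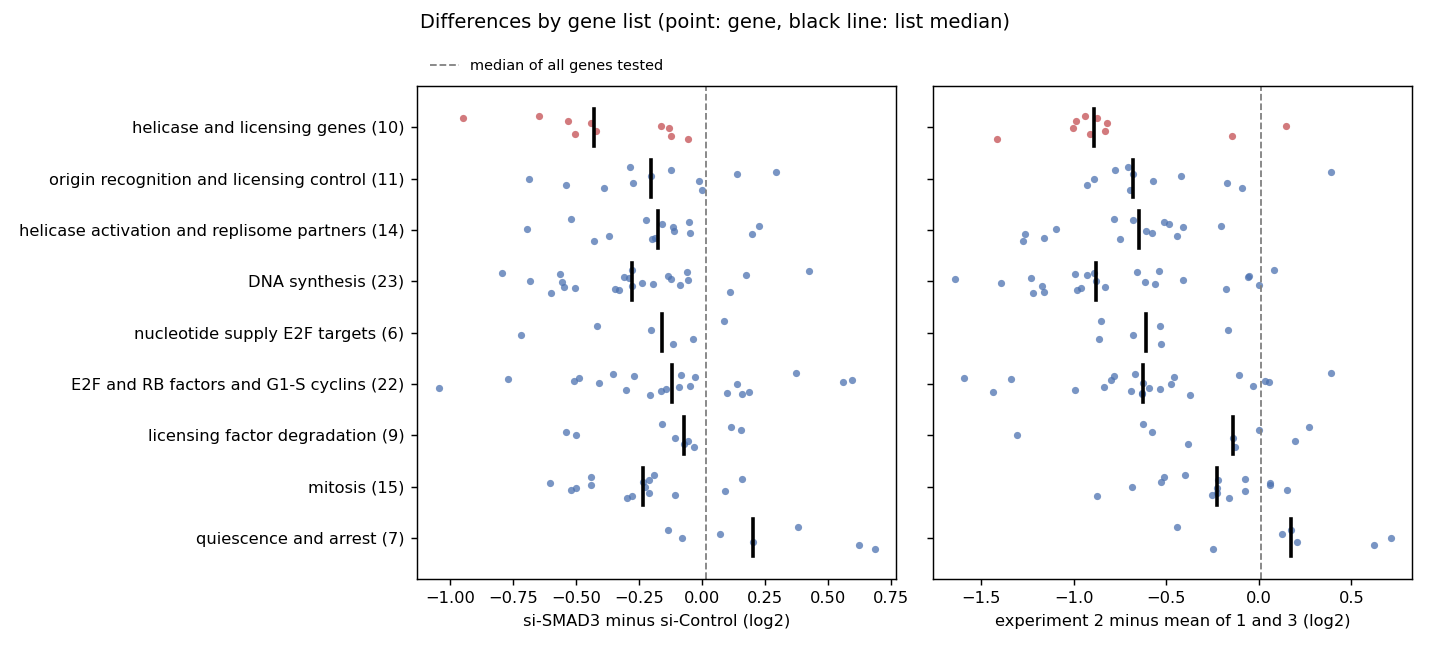
Each point is a tested gene, in rows by list with the number of genes in brackets, and black lines are list medians. The left panel shows si-SMAD3 minus si-Control and the right panel experiment 2 minus the mean of experiments 1 and 3, both in log2 units; the dashed lines mark the medians of all genes, 0.02 and 0.01. The helicase and licensing genes have the lowest median of the lists shown in both panels, -0.43 and -0.89. In the right panel the DNA synthesis list is close behind, at -0.88. The ranking is description only, since genes and lists were chosen with earlier results of these data known.

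Experiment 2 was low in most of the companion lists as well. The median of experiment 2 minus the others was -0.68 for origin recognition and licensing control, -0.65 for helicase activation, -0.88 for DNA synthesis and -0.61 for nucleotide supply. It was -0.63 for the E2F, RB and G1-S regulators, -0.22 for mitosis, -0.14 for turnover of licensing factors and 0.17 for quiescence and arrest, with 0.01 over all genes tested. Whether these lists differ from each other was not tested.

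The genes with a profile most like the mean of the 10, each centred on its own mean, were ANKRD18B, EGFR, DPY19L2P1, CYCSP24 and MT2A. Pearson's r over the 6 arrays was 0.997, 0.996, 0.995, 0.993 and 0.993, the highest among all other tested genes. As the arrays of experiment 2 stand apart, such an r reflects mostly that contrast, and it carries no p. EGFR, the epidermal growth factor receptor, was at 9.87, 8.26 and 9.89 in the control and at 9.08, 7.98 and 9.23 in the knockdown arrays. DPY19L2P1 and CYCSP24 are pseudogenes, and signal from their parent genes may reach those probe sets.

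A pair of genes start near these promoters on the opposite strand. TPRA1, with a start 180 bases from that of MCM2, was at 8.33, 7.57 and 8.48 in the control and at 8.43, 8.39 and 8.40 in the knockdown arrays, a difference of 0.28 (SE 0.25). AP4M1, with a start 40 bases from one of MCM7, was at 7.40, 7.21 and 7.01 in the control and at 6.99, 7.51 and 6.38 in the knockdown arrays, a difference of -0.24 (SE 0.28). AP4M1 was higher in experiment 2 than in the others by 0.41, where MCM7 was lower by values given above. Both genes were taken by position, within 1000 bases, and the difference from their neighbours was not tested.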

How the data were processed

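The deposited table holds log2 values for 138745 probe sets on 6 arrays, which the authors deposited. Per the submitters' processing notes they used RMA and Affymetrix Expression Console. The genome build was not given in the sources used here. RMA equalizes arrays, so a change of total RNA cannot be seen. The number of arrays limits the precision. The p-values rest on the spread between these arrays, which limma moderates with the spread of all tested genes.

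Probe sets with 1 symbol (36176) were named from the platform's table and updated through a RefSeq gene table. Genes below 3.93, the median of probe set means, were left out. limma 3.58.1 (R 4.3.3; lmFit, eBayes) compared the groups over 20590 genes, 2-sided, with Benjamini-Hochberg adjustment, and an F test assessed the experiment. The procedure was tested on simulated data. For the siRNA group it recovered 1.8%, 35.6% and 98.8% of changes of 0.5, 1 and 2 log2 units. For the experiment term it recovered 0.4%, 8.1% and 97.6%. Members and lists were chosen with earlier results of these data known.

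Named genes are the members, SMAD3, all genes of the first 2 companion lists, the 4 with the smallest p of each other list, the 5 most like the members' mean profile, and cell type markers for their level. Others are said to be chosen by position or after their values were seen.

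Replicate numbers are taken to mark the separate times of the design text. After subtracting group means, arrays of the same number correlated at 0.15, 0.22 and 0.05, other pairs at -0.18 to 0.06.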

Additional observations from a re-analysis of the deposited data

How the results depend on the processing

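None of the 10 genes was called under any of the 17 alternatives (adjusted p of at least 0.53), and the median difference stayed below 0. The number of genes called over all genes was 1, or 5 under the intensity trend with robust variance and 3 with arrays centred on their medians, and 0 to 1 when arrays or experiments were left out. The replicate block changed no adjusted call; the members at an unadjusted p under 0.05 were then 3 (MCM4, MCM6 and MCM7) in place of 1. That number was 5 without si-Control replicate 2, 4 without experiment 2, and 0 without si-Control replicate 1, si-Control replicate 3, si-SMAD3 replicate 2 or experiment 1. Over all 20590 genes tested the same count, in either direction, was 1182 in the main fit and 1438 with the block. Without si-Control replicate 2 the count was 1498 and without experiment 2 it was 1360. In the settings with 0 members it was 995, 1152, 1042 and 755, in the order given. When arrays or experiments were left out, the median ran from -0.69 to -0.20 and the number of genes with a lower mean from 7 to 10. The differences of MCM2 (-0.48 to 0.19), CDC6 (-0.64 to 0.36) and CDT1 (-0.24 to 0.089) changed sign in some of these; the other 7 stayed below 0, but MCM3 (-0.30 to -0.016) and MCM10 (-0.66 to -0.016) came close to it, and MCM4 (-0.75 to -0.20), MCM5 (-0.99 to -0.15), MCM6 (-1.19 to -0.60), MCM7 (-1.04 to -0.42) and GINS2 (-0.95 to -0.19) also varied widely. The cause was not tested. The stricter filter left CDT1 out. Leaving out genes constant over the arrays, chosen after seeing the data, changed no call.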
